A study of Bos taurus with 18 samples.

Results

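The 8-cell embryo was compared with the 4-cell embryo, the step at which the bovine embryo switches its own genome on in a broad way. Both stages had 3 libraries, which are the 6 compared here out of 18 libraries of 6 stages, and 17138 of the 21668 genes in the table had enough reads to be tested. All 6 libraries came from embryos produced in vitro. Oocytes of German Simmental cows were matured and fertilised in culture with sperm of a Brahman sire, and the embryos grew in synthetic oviduct fluid with cow serum under reduced oxygen until they reached their stage. Both groups therefore share breed cross, sire breed and culture, and differ by stage. Each library was made from RNA of 10 embryos that were pooled after inspection by eye, so a pool can mix embryos that differ in age or progress, and no single embryo was measured. The labels give no time after fertilisation, and they do not say whether the 3 pools of a stage came from separate collections, so the p-values measure the spread between pools. GV oocytes (with the germinal vesicle, before maturation), MII oocytes (matured to metaphase II), 16-cell embryos and blastocysts, also 3 pools of 10 each, add to the estimate of spread in the fit and are otherwise used below to place the genes found; the oocytes are pure German Simmental.

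An egg is loaded with RNA and protein by the mother, and the first divisions run on this store while the genome stays almost silent. Genome activation is the step at which the embryo begins to transcribe its own genes, and it goes together with destruction of maternal RNA. In cattle the main wave is known to fall at about the 8-cell stage, after a minor one, and homeobox, zinc finger and KLF transcription factors are among the first genes to be read.

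A scaled count below is the number of reads recovered for a gene in a library, put on a common scale between libraries. It is not corrected for gene length and gives no amount per embryo. A difference is the 8-cell minus the 4-cell mean of the deposited variance-stabilised log2 values with its SE from limma, and it understates the change of genes with few reads. Values given as a series of 3 are those of replicates 1, 2 and 3. A gene rose or fell where limma gave an adjusted p (Benjamini-Hochberg over all genes tested) under 0.05. In brackets after the counts of a gene list stand the shares of its tested genes that rose and fell, to be read against 8.64% and 4.13% of all genes tested, and the numbers that rose and fell in a fit of the libraries of both stages alone, against 736 and 281 of all genes. Such a change in bulk RNA cannot tell more RNA per cell from a larger share of embryos or cells that hold it.

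The 4-cell libraries held 11874857, 11971840 and 5386236 reads in genes and the 8-cell libraries 9954859, 10062355 and 5206082. Replicate 2 of the 8-cell stage stood apart before any gene was tested. It was the deepest 8-cell library but had reads in only 12393 genes, against 14081 and 14618 in replicates 1 and 3. Its rank correlations across genes with replicates 1 and 3 were 0.887 and 0.876, while that between replicates 1 and 3 was 0.916. With the 4-cell libraries it correlated at 0.862 to 0.870, between replicate 1 at 0.864 to 0.878 and replicate 3 at 0.844 to 0.859. Array weights, which limma estimates from how far a library lies from its group, were 1.42, 0.304 and 0.566 for 8-cell replicates 1, 2 and 3. Results below are therefore given with and without replicate 2 where they rest on it.

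Marker genes were read first as a check of the labels. The oocyte gene ZP2 had 20997, 31574 and 25586 scaled counts at 4 cells and 12473, 20941 and 9779 at 8 cells. BMP15 had 19095 to 33674 over the 6 libraries, so RNA of both was still present in all of them. Of the other oocyte markers, BTG4 had 32762, 42463 and 39743 at 4 cells and 36137, 58008 and 30584 at 8 cells. ZP3 had 1338, 1142 and 1106 and then 345, 661 and 524. NLRP5 had 1487, 2086 and 1270 and then 789, 988 and 549. GDF9, ZP4 and OOEP were lower in 8-cell replicates 1 and 3 than in all 4-cell libraries, while 8-cell replicate 2 lay within the 4-cell range. FIGLA, given below, was the only one of these oocyte markers called, as a fall. Of 6 genes fixed as marks of the activated embryo, LEUTX was not analysed here and the other 5 rose. Trophectoderm keratins, which mark the outer layer of the blastocyst, were near 0, with at most 35.9 scaled counts of KRT8 and 11.2 of KRT18. Among marks of the cumulus and granulosa cells that surround the oocyte, LHCGR and FOXL2 had 0 reads in all 6 libraries, FSHR and TNFAIP6 had 0 in all 4-cell libraries and at most 4.22 and 15.5 in 8-cell libraries, and CYP19A1 lay between 11.2 and 21.8. HAS2 had 1107 to 2359 over the 6 libraries. None of the 28 tested cumulus and granulosa genes rose or fell (1 rose without replicate 2), and their summed level was 4382 to 5399 in 4-cell and 3853 to 6402 in 8-cell libraries. Of red cell, leukocyte and sperm marks, HBB, PRM1, PRM2 and PTPRC had 0 reads in all 6. The sperm gene TNP1 had 0 reads at 4 cells and 67, 0 and 28 reads at 8 cells, and the leukocyte gene CD14 had 0 and then 3, 0 and 3. None of the 8 tested genes of that list was called (3 rose without replicate 2), and their summed level was 12 to 65.7 in 4-cell and 3.27 to 119.8 in 8-cell libraries.

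At the 8-cell stage 1480 genes rose, which is 8.64% of the genes tested, and 708 fell, which is 4.13%. The rises were larger than the falls. The median difference was 3.07 among genes that rose (quartiles 2.11 and 4.23) and -2.0 among genes that fell (quartiles -2.65 and -1.50), against 0 over all genes tested. The median gene that rose went from 21.1 to 361 scaled counts and the median gene that fell from 414 to 119. Of the rises, 201 had no read in any 4-cell library and 239 had 1 to 10 reads over the 3 together, while 455 already had a mean of 100 scaled counts or more at 4 cells. Of the 1279 rises with reads at 4 cells, 991 were more than 4-fold higher, 500 more than 16-fold and 211 more than 64-fold. Falls to nothing were rare, with 42 genes at 0 reads in all 8-cell libraries. All 8-cell libraries lay above all 4-cell libraries for 13% of the genes tested and below them for 12.9%, and the groups did not overlap for 1383 of the rises and 684 of the falls.

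**Figure D1:**
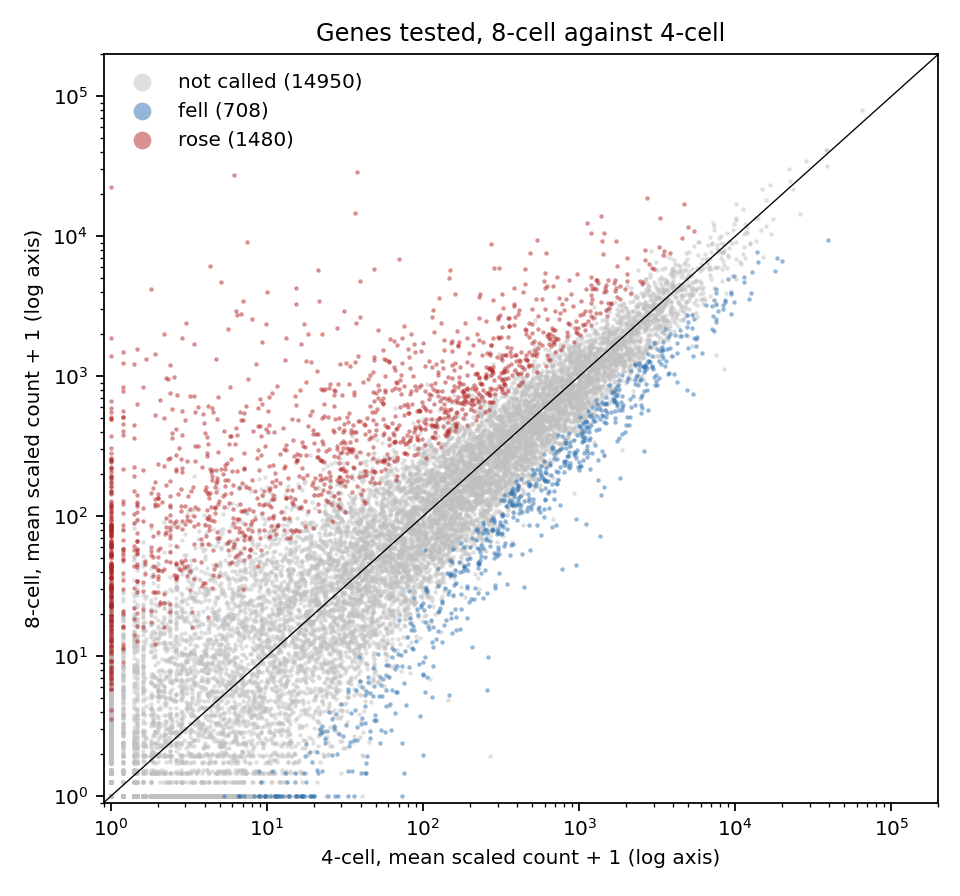
Mean scaled count plus 1 of each of the 17138 genes tested in 4-cell (x axis) and 8-cell embryos (y axis), both on log axes, with n = 3 pools a stage. Red points are the 1480 genes that rose and blue points the 708 that fell. The rises reach up from the left edge, where 201 of them had no read at 4 cells, while the falls lie along the lower side of the diagonal.

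The number of falls moved with the libraries left out. Leaving out 4-cell replicate 1, 2 or 3 left 364, 403 or 448 falls and 1181, 1160 or 1194 rises. Without 8-cell replicate 1, 2 or 3 there were 1274, 1963 or 1098 rises and 649, 722 or 576 falls. The number of rises thus went up without replicate 2, to 11.5% of the genes tested, while the falls made up 4.21%. Of the 1480 rises 1382 and of the 708 falls 478 were called in that fit too. A fit of only the 6 libraries of both stages, which takes its spread from them alone, called 736 rises and 281 falls. The balance of rises and falls also depends on the scale. The median value of the tested genes was higher by 0.24 in 8-cell than in 4-cell libraries, and with library medians set equal 1205 genes rose and 1016 fell, so that 54.3% of the calls were rises in place of 67.6%.

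Genes that rose took up a much larger part of the reads. Their share of a library's scaled counts was 3.86%, 3.81% and 3.98% in 4-cell libraries and 20.3%, 13.7% and 24.5% in 8-cell libraries, and it was 30.5% to 34% in 16-cell libraries and 19% to 20.5% in blastocysts. The genes that fell went from 13.5%, 12.3% and 13.8% to 4.99%, 4.47% and 4.20%, and stood at 3.76% to 4.63% in 16-cell libraries and 7.07% to 7.92% in blastocysts. Replicate 2 was thus the lowest 8-cell library for the rises and lay between the other two for the falls. The 4-cell and 8-cell values of these shares are those that chose the genes. The 16-cell and blastocyst values are no part of that difference, although all stages share the estimate of spread.

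**Figure D2:**
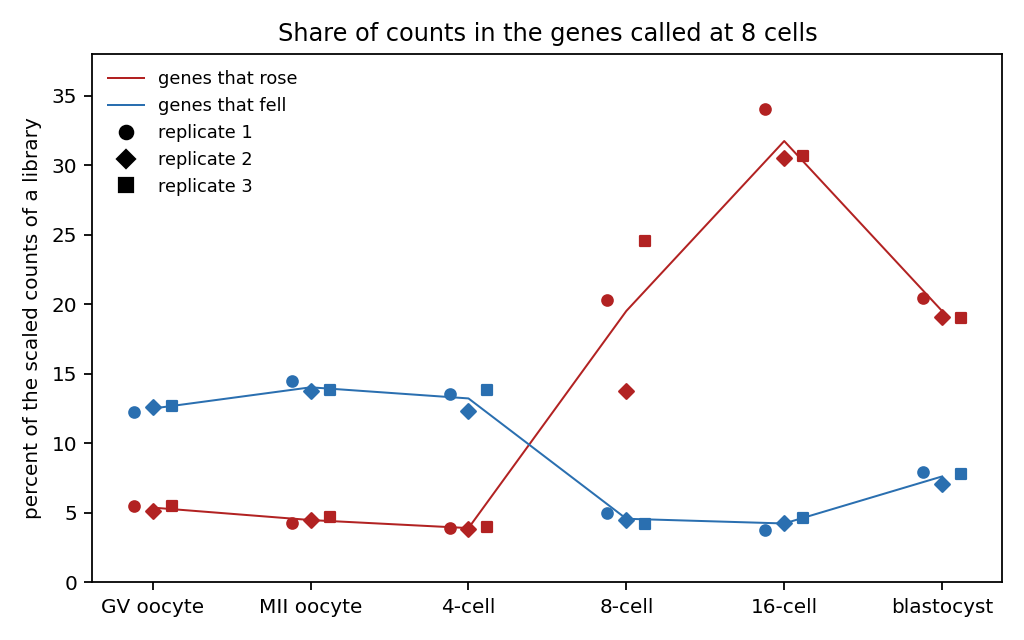
Percent of a library's scaled counts (y axis) in the 1480 genes that rose (red) and the 708 that fell (blue) at 8 cells, by stage (x axis); each point is 1 library and lines join stage means. Among 8-cell libraries replicate 2 is lowest for the rises at 13.7%, and the rises reach 30.5% to 34% at 16 cells.

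The direction of these changes was then read between MII oocytes and 16-cell embryos, whose values are no part of the 8-cell minus 4-cell difference, although all stages share the estimate of spread. Of all genes tested 20.8% were higher and 22.4% lower at 16 cells. Among the 1480 rises 1197 were higher (80.9%) and 5 lower, with a median difference of 3.12. Among the 708 falls 419 were lower (59.2%) and 19 higher, with a median difference of -1.62. Breed differs between MII oocytes and embryos, and its part in this contrast was not tested. Genes chosen without replicate 2 gave 1488 of 1963 higher (75.8%) and 455 of 722 lower (63.0%).

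A set of genes went from almost nothing to more than 1000 scaled counts. SGK1, a kinase of the serum and stress response, had 16.9, 0.604 and 0 scaled counts in 4-cell libraries and 2108, 2266 and 3924 in 8-cell libraries (difference 8.87 ± 0.65, adjusted p = 7.3e-09). H2AFZ, which encodes the histone variant H2A.Z, had 27.7, 9.06 and 69.9 and then 16258, 12682 and 15375 (difference 8.86 ± 0.49, adjusted p = 6.7e-11). ANKRD50, an ankyrin protein of endosome recycling, went from 0, 0 and 5.59 to 2950.3, 1060.4 and 1655 (difference 8.87 ± 0.74, adjusted p = 4e-08). In each of the 3 the 8-cell libraries lay far above all 4-cell libraries, and replicate 2 was lowest only for H2AFZ and ANKRD50.

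Further large rises were seen in each 8-cell library, with replicate 2 lowest in some of them. MBD3L2, a relative of methyl-CpG binding proteins, had 7.83, 0 and 8.39 at 4 cells and 2850.3, 3391 and 2035 at 8 cells (difference 8.59 ± 0.80, adjusted p = 1.7e-07), and its mean was 433 ± 218 (SD, n = 3) in 16-cell embryos and 1.19 ± 2.06 in blastocysts. RSRP1 (LOC615263), an arginine and serine rich protein, went from 9.64, 0 and 8.39 to 4581, 4041 and 1782 (difference 8.77 ± 0.74, adjusted p = 4.6e-08). For both, replicate 2 lay within or above the other 8-cell libraries. The factors TFAP2C, KLF17 and DUXA (LOC100297492), with the largest differences among genes with a symbol, had 4669, 3079.8 and 4755, 7726, 8342 and 11097 and 7026, 5156 and 6098 at 8 cells against at most 1.81, 12.6 and 6.63 at 4 cells. In replicate 2 KLF17 lay between the other libraries, and TFAP2C and DUXA lay below both but far above 4 cells. The largest difference of all belonged to a gene listed only as LOC510631, with 0 reads in all 4-cell libraries and 27547, 12017 and 27548 in the 8-cell libraries (difference 13.15 ± 0.51, adjusted p = 4.3e-13). LOC538435 went from 7.83, 0.604 and 6.99 to 32904, 13783 and 35940.0 (difference 11.64 ± 0.58, adjusted p = 3e-11). What both encode is not given in the sources used here, and replicate 2 was lowest in both.

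**Figure D3:**
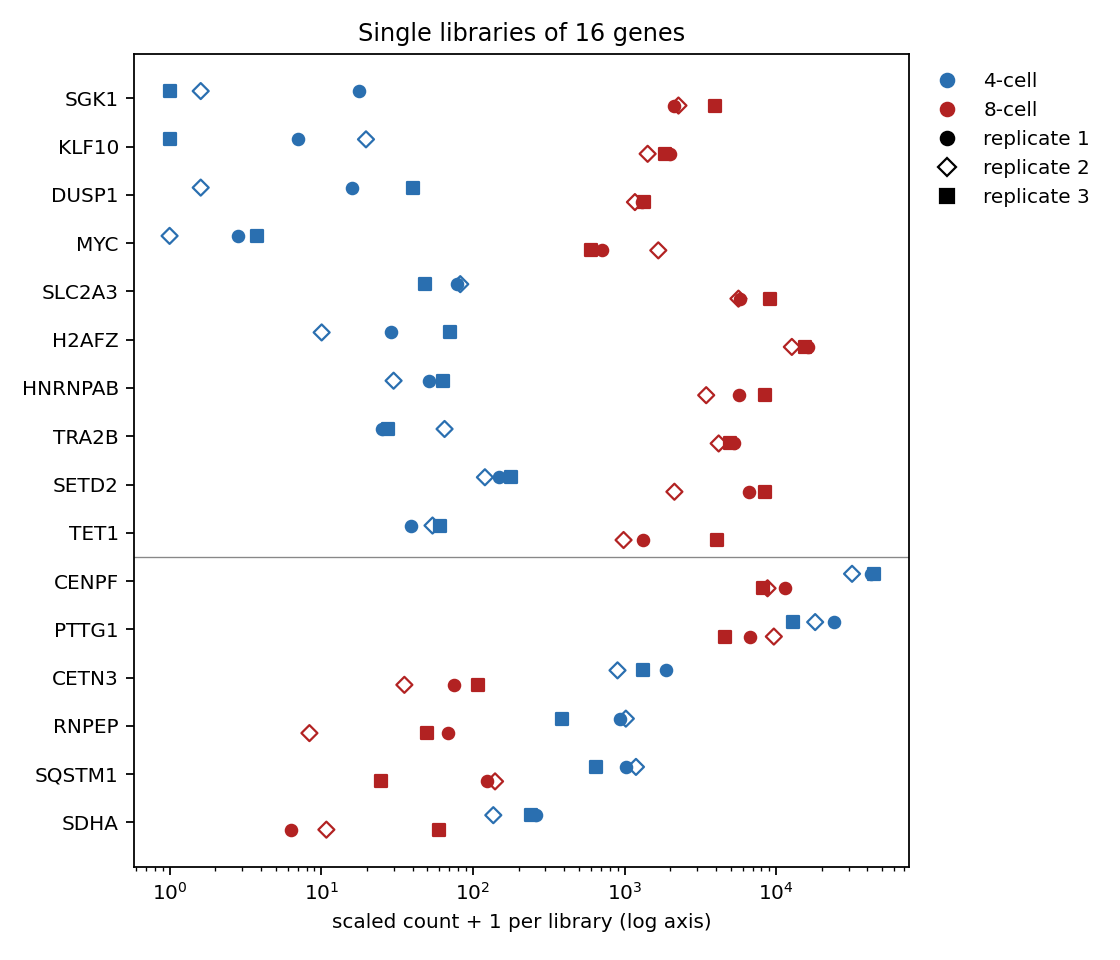
Scaled count plus 1 on a log axis (x axis) of 16 genes in each 4-cell library (blue) and each 8-cell library (red); open diamonds are replicate 2. Above the line are 10 genes that rose and below it 6 that fell, and in each of the 16 genes the stages do not overlap.

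Most transcription factors linked to genome activation rose. Of 20 tested 15 rose and none fell (75% and 0%; 10 and 0 with both stages alone), with a median difference of 3.81 (11 to 15 rises over the fits that each left out 1 library). This list, like the others, was written with earlier results of these data known, so its share is a description and no independent result. Some genes, such as KLF17, stand in more than 1 list, so the lists are not separate groups of genes. ZSCAN4, a zinc finger factor of the earliest embryonic transcription, had 33.1, 0 and 9.79 and then 2937, 3692 and 3286, and ARGFX, a homeobox gene, 0, 0.604 and 1.4 and then 2160.2, 361 and 1466. Replicate 2 was the highest library for ZSCAN4 and the lowest for ARGFX, far below the other two. In the KLF family 5 of 15 rose and none fell (33.3% and 0%; 4 and 0 with both stages alone; falls numbered 1 without 8-cell replicate 3). KLF4, a zinc finger activator, rose from 203, 109 and 127 to 4771, 4944 and 5443 (difference 5.11 ± 0.33, adjusted p = 1.4e-09), with 8-cell values that spread little. KLF10, a growth factor induced member, rose from 6.02, 18.7 and 0 to 1997, 1419 and 1854 (difference 7.75 ± 0.82, adjusted p = 9.7e-07).

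Immediate early and stress genes, which cells switch on within minutes of a stimulus, had 8 rises and 2 falls among 38 (21.1% and 5.26%; 8 and 0 with both stages alone; median difference 0.72, or 0.48 with library medians set equal). The falls numbered 0 without 4-cell replicate 1, 2 or 3 or 8-cell replicate 2 or 3. DUSP1, a phosphatase of MAP kinases, went from 15.1, 0.604 and 39.2 to 1295, 1170.0 and 1339 (difference 6.43 ± 0.65, adjusted p = 4.8e-07), and BTG1, an antiproliferative adaptor, from 161, 77.3 and 103 to 2329.7, 3179.6 and 2392 (difference 4.52 ± 0.35, adjusted p = 1.4e-08). The 8-cell values of DUSP1 lay close together. In the MYC network 5 of 20 rose and 2 fell (25% and 10%; 4 and 2 with both stages alone). MYC itself rose from 1.81, 0 and 2.8 to 705, 1669 and 599 (difference 7.69 ± 0.97, adjusted p = 8.8e-06), with replicate 2 highest, while MYCN had 322, 70.3 and 247 at 8 cells, with replicate 2 lowest (difference 5.91 ± 0.79, adjusted p = 1.8e-05). MGA, a MAX partner, rose from 228, 242 and 373 to 2379, 1419 and 6667 (difference 3.34 ± 0.39, adjusted p = 3.8e-06). ODC1, the MYC target that makes polyamines, fell from 4873, 6235 and 5808 to 1259.5, 1562 and 2146 (difference -1.79 ± 0.24, adjusted p = 1.7e-05), so the list did not move one way.

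Zinc finger genes with a ZNF symbol did not move as a family. Of 296, 24 rose and 3 fell (8.11% and 1.01%; 14 and 1 with both stages alone); without replicate 2, 32 rose. The falls numbered 1 without 4-cell replicate 1 or 2 and 0 without 4-cell replicate 3. Single members made large rises. ZNF41 (LOC531674) had 0 reads at 4 cells and 1756, 1298 and 1116 at 8 cells (difference 9.22 ± 0.69, adjusted p = 1.1e-08), ZNF296 had a single read at 4 cells and 449.6, 427 and 645 at 8 cells (difference 7.53 ± 0.85, adjusted p = 2.1e-06), and ZNF131 rose from 52.4, 13.9 and 23.8 to 4701, 1099.6 and 3042 (difference 6.35 ± 0.52, adjusted p = 3.6e-08). Homeobox and forkhead genes outside the activation list had 1 rise and 1 fall among 37 (2.7% and 2.7%; 2 and 1 with both stages alone). Homeobox genes of the activation list, such as DUXA and ARGFX, are not counted among them. Rises of that list numbered 2 without 8-cell replicate 2, and falls 0 without 4-cell replicate 1, 2 or 3 or 8-cell replicate 3 and 2 without 8-cell replicate 2.

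Some of the genes that later mark cell lineages rose. Of 23 pluripotency genes 5 rose and none fell (21.7% and 0%; 3 and 0 with both stages alone); rises numbered 3 without 4-cell replicate 2 or 8-cell replicate 1 or 3, and falls 1 without 8-cell replicate 2 or 3. PRDM14, a repressor that guards the naive state, had 0 reads at 4 cells and 422, 417 and 703 at 8 cells (difference 7.78 ± 0.79, adjusted p = 5.1e-07). TBX3 rose from a single read to 224, 434 and 551 (difference 7.14 ± 0.64, adjusted p = 1.2e-07). ZFP42 (LOC100138651), which encodes REX1, also had a single read at 4 cells and reached 994, 408 and 949 (difference 8.08 ± 0.62, adjusted p = 1.4e-08). NANOG had 6.63, 0 and 9.79 at 4 cells and 207, 9.81 and 415 at 8 cells (difference 3.94 ± 1.02, adjusted p = 0.012). Replicate 2 held 9.81 of it, the value of a 4-cell library, and the adjusted p of NANOG was 0.00016 without replicate 2 but 0.057 without 8-cell replicate 1, 0.087 without replicate 3 and 0.08 without 4-cell replicate 2. POU5F1 and SOX2 were not called: POU5F1 had 355, 207 and 196 and then 163, 216 and 194 (difference -0.35 ± 0.38, adjusted p = 0.64), and SOX2 108, 71.9 and 158 and then 87, 26.2 and 393 (difference -0.11 ± 0.67, adjusted p = 0.98). NANOG was not called with both stages alone (adjusted p = 0.24).

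Of 37 trophectoderm genes 6 rose and 1 fell (16.2% and 2.7%; 2 and 2 with both stages alone); rises numbered 3 without 4-cell replicate 1 or 8-cell replicate 1, and falls 0 without 4-cell replicate 1 or 8-cell replicate 3. The rises included TFAP2C, given above, and ID2, given below, which stand in other lists too. EOMES, a T-box factor, rose from 11.4, 0.604 and 23.8 to 417, 173 and 316 (difference 4.60 ± 1.00, adjusted p = 0.0031). Its mean was 230 ± 294 at 16 cells and only 1.62 ± 2.22 in blastocysts (SD, n = 3). CDX2, the factor that holds trophectoderm identity, was not called: it had 89.1, 22.4 and 36.4 at 4 cells and 45.8, 365 and 53.4 at 8 cells, so that only replicate 2 stood high (difference 1.13 ± 0.91, adjusted p = 0.49). GATA3 had 22.1, 157 and 160.2 at 8 cells and was not called either (difference 1.10 ± 0.98, adjusted p = 0.55). Of 15 hypoblast genes 2 rose and none fell (13.3% and 0%; 2 and 0 with both stages alone; falls numbered 1 without 4-cell replicate 2 or 8-cell replicate 2). GATA6 (LOC654400), which directs the primitive endoderm, had 0 reads at 4 cells and 149.6, 139 and 285 at 8 cells (difference 6.34 ± 0.61, adjusted p = 2.7e-07), and the receptor gene PDGFRA went from 0, 48.9 and 1.4 to 1119, 561 and 2201 (difference 7.05 ± 0.81, adjusted p = 2.9e-06). EOMES was not called with both stages alone (adjusted p = 0.051).

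BMP and TGF-beta genes were called at shares near those of all genes. In that list 4 of 37 rose and 2 fell (10.8% and 5.41%; 2 and 1 with both stages alone), and falls numbered 0 without 4-cell replicate 1, 2 or 3 or 8-cell replicate 3. The ligand gene BMP4 rose from 79.5, 128 and 78.3 to 1357, 1319.6 and 1863 (difference 3.94 ± 0.44, adjusted p = 1.7e-06), and ID2, an inhibitor of helix-loop-helix factors and a known BMP target, from 25.9, 26 and 33.6 to 312, 2238 and 1109 (difference 4.82 ± 0.72, adjusted p = 6.8e-05). The 8-cell values of BMP4 lay close together, while those of ID2 spread widely with replicate 2 highest. Of 52 FGF, WNT and NOTCH genes 1 rose and 3 fell (1.92% and 5.77%; 0 and 1 with both stages alone), and rises numbered 2 without 8-cell replicate 1 and 4 without 8-cell replicate 2. CTNNB1, which encodes beta-catenin, fell from 1494, 1594 and 3318 to 628, 341 and 839 (difference -1.81 ± 0.35, adjusted p = 0.0012), and APC, which holds beta-catenin in check, from 1452, 1237 and 1599.6 to 454, 464 and 634 (difference -1.47 ± 0.30, adjusted p = 0.0017). FGF18 was the rise, from 0.602, 6.65 and 2.8 to 49.6, 323 and 64.6 (difference 4.05 ± 0.85, adjusted p = 0.0024), again with replicate 2 highest. CTNNB1 and FGF18 were not called with both stages alone (adjusted p = 0.11 and 0.077).

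The machinery that reads genes rose in parts. Of 80 genes of RNA polymerase II, its general factors and Mediator, 14 rose and 3 fell (17.5% and 3.75%; 7 and 1 with both stages alone; median difference 0.21, or -0.03 with library medians set equal); rises numbered 9 without 8-cell replicate 3 and falls 5 without 8-cell replicate 2. TAF4B, a germ cell subunit of TFIID, rose from 303, 349.8 and 299 to 3618, 4136 and 3942 (difference 3.60 ± 0.30, adjusted p = 4.7e-08), with close 8-cell values. POLR2B, the second largest polymerase subunit, rose from 419, 399 and 401 to 3092, 1795 and 3508 (difference 2.71 ± 0.33, adjusted p = 5.2e-06), with replicate 2 lowest, and TAF8 from 6.63, 6.65 and 1.4 to 521, 253 and 340.1 (difference 5.44 ± 0.75, adjusted p = 2.5e-05). Of Mediator, the bridge between activators and polymerase, MED23 fell from 211, 408 and 702 to 39.7, 4.91 and 46.4 (difference -3.87 ± 0.60, adjusted p = 0.00011) and MED14 (LOC529109) from 6802, 5790.1 and 10655 to 2598, 2669 and 3499 (difference -1.37 ± 0.27, adjusted p = 0.0014). MED23 and MED14 were not called with both stages alone (adjusted p = 0.073 and 0.064).

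Elongation and pause release had 9 rises and 2 falls among 36 (25% and 5.56%; 5 and 1 with both stages alone; median difference 0.42, or 0.18 with library medians set equal), and falls numbered 1 without 4-cell replicate 2 or 3. SUPT4H1, the small subunit of the elongation factor DSIF, rose from 23.5, 36.9 and 21 to 2324, 2416 and 1908 (difference 6.16 ± 0.55, adjusted p = 1.1e-07), and ELL2, of the super elongation complex, from 281, 215 and 358 to 6279, 2274 and 9252 (difference 4.17 ± 0.45, adjusted p = 1.4e-06). LARP7, which keeps the kinase P-TEFb in an inactive particle, fell from 1915, 1908 and 1580.1 to 931, 267 and 510.1 (difference -1.83 ± 0.42, adjusted p = 0.0046). Of 34 genes of RNA polymerases I and III, 5 rose and 2 fell (14.7% and 5.88%; 1 and 2 with both stages alone), and rises numbered 3 without 4-cell replicate 2 and falls 1 without 4-cell replicate 1, 2 or 3. TAF1D, a factor that brings polymerase I to ribosomal DNA, had 1.81, 0 and 25.2 and then 3369, 5196 and 3361 (difference 9.09 ± 0.74, adjusted p = 3.6e-08), while the polymerase subunit POLR1B fell from 1417, 1223 and 1805 to 387, 578 and 575 (difference -1.53 ± 0.31, adjusted p = 0.0017). LARP7 was not called with both stages alone (adjusted p = 0.1).

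Among lists with 50 or more tested genes, splicing had the largest share of rises after the cytosolic ribosomal proteins. Of 113 spliceosome and SR genes 40 rose and 5 fell (35.4% and 4.42%; 20 and 2 with both stages alone), with a median difference of 0.47, or 0.23 with library medians set equal. The rises were 31 to 45 over the fits that left out 1 library, and falls numbered 3 without 4-cell replicate 1 or 2 or 8-cell replicate 2. HNRNPAB, an RNA-binding protein of spliced messages, went from 50.6, 29 and 62.9 to 5727, 3454 and 8416 (difference 6.79 ± 0.37, adjusted p = 6.7e-11), and TRA2B, a splicing activator, from 24.1, 64 and 26.6 to 5274, 4174 and 4969 (difference 6.93 ± 0.72, adjusted p = 8.1e-07). EFTUD2, a GTPase of the U5 particle, fell from 1456, 1192 and 1341 to 218, 706 and 327 (difference -1.83 ± 0.37, adjusted p = 0.0017), and RBM17 from 492, 386 and 401 to 172, 75.2 and 70.3 (difference -2.08 ± 0.41, adjusted p = 0.0015). The mean of TRA2B was 3773 ± 2103 at 16 cells and 1319 ± 403 in blastocysts, and that of HNRNPAB 10115 ± 1967 and 7152 ± 518 (SD, n = 3). EFTUD2 was not called with both stages alone (adjusted p = 0.09).

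Messenger RNA decay and poly(A) control, the machinery that removes the maternal store, changed in both directions. Of 78 genes 13 rose and 5 fell (16.7% and 6.41%; 9 and 1 with both stages alone; median difference -0.10, or -0.34 with library medians set equal and -0.15 without replicate 2), and falls numbered 2 without 4-cell replicate 1, 2 or 3 and 3 without 8-cell replicate 3. ZCCHC6, the uridylyltransferase TUT7 that tags messages for decay, rose from 1060.1, 1568 and 1499 to 15036, 7518 and 19561 (difference 3.26 ± 0.32, adjusted p = 3.6e-07), and YTHDF2, a reader of m6A that speeds decay, from 60.8, 75.5 and 55.9 to 902, 1335 and 1237 (difference 4.07 ± 0.42, adjusted p = 7.9e-07). IGF2BP1, an RNA-binding protein that protects messages, rose from 3.01, 0 and 0 to 181, 131 and 393 (difference 6.03 ± 0.71, adjusted p = 3.9e-06), and CSTF2, a cleavage and polyadenylation factor, fell from 362, 359 and 371 to 74.8, 27.8 and 80.1 (difference -2.62 ± 0.47, adjusted p = 0.00057). Nuclear transport had 9 rises and 8 falls among 62 (14.5% and 12.9%; 3 and 1 with both stages alone; rises numbered 14 without 8-cell replicate 2, and falls 4 without 4-cell replicate 2 or 3). NUPL2 of the pore rose from 267, 395 and 309 to 2574, 3869 and 2715 (difference 3.21 ± 0.35, adjusted p = 1.4e-06) and the importin IPO7 from 42.2, 70.7 and 81.1 to 1178, 283 and 1859 (difference 3.68 ± 0.56, adjusted p = 7.8e-05), while the pore subunit NUP160 fell from 1198, 1123 and 2907 to 398, 167 and 462 (difference -2.31 ± 0.41, adjusted p = 0.00045) and the tRNA exporter XPOT from 1001, 1016 and 1109 to 419.8, 323 and 443 (difference -1.40 ± 0.29, adjusted p = 0.0019). IPO7 and NUP160 were not called with both stages alone (adjusted p = 0.062 and 0.089).

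Genes for ribosomal proteins of the cytosol and of the mitochondrion had different counts. Of 87 cytosolic ribosomal protein genes 48 rose and none fell (55.2% and 0%; 20 and 0 with both stages alone), with a median difference of 1.51 (33 to 47 rises over the fits that left out 1 library, 29 by voom on the recovered reads). These genes have many processed copies in the genome, which may share their reads. RPL26 rose from 22.9, 31.4 and 23.8 to 813, 641 and 944 (difference 4.72 ± 0.36, adjusted p = 1.2e-08) and RPL36AL from 17.5, 7.25 and 11.2 to 1739, 538 and 1669.5 (difference 6.22 ± 0.45, adjusted p = 6.4e-09), with replicate 2 lowest in both. Of 78 mitochondrial ribosomal protein genes 3 rose and 6 fell (3.85% and 7.69%; 3 and 0 with both stages alone), with a median difference of -0.32, or -0.56 with library medians set equal; rises numbered 6 without 8-cell replicate 2 and falls 3 without 4-cell replicate 1 or 2. MRPL42 fell from 78.9, 225 and 144 to 45.8, 0 and 7.03 (difference -3.71 ± 0.74, adjusted p = 0.0014) and MRPL38 from 292, 197 and 149.6 to 35.1, 7.36 and 46.4 (difference -2.88 ± 0.60, adjusted p = 0.0022), while MRPL17 rose from 14.5, 21.8 and 35 to 419, 591 and 528 (difference 4.26 ± 0.50, adjusted p = 4.2e-06). MRPL42 and MRPL38 were not called with both stages alone (adjusted p = 0.18 and 0.084).

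Ribosome biogenesis genes rose in 18 of 84 cases and fell in 4 (21.4% and 4.76%; 9 and 1 with both stages alone; median difference 0.26, or 0.02 with library medians set equal). NOL11, needed to transcribe and process ribosomal RNA, rose from 143, 143 and 117 to 1577, 808 and 3051 (difference 3.51 ± 0.44, adjusted p = 8e-06), and WDR3 fell from 2677, 2358 and 2820.3 to 1303, 641 and 1276 (difference -1.35 ± 0.29, adjusted p = 0.0028). Of 62 translation factors 12 rose and 3 fell (19.4% and 4.84%; 11 and 3 with both stages alone; median difference 0.30, or 0.06 with library medians set equal; 17 rose without replicate 2). EIF6, which keeps the ribosomal subunits apart, rose from 1532, 1369 and 1396 to 11536, 5359 and 14906 (difference 2.76 ± 0.35, adjusted p = 8.8e-06) and EIF1AX from 392, 337 and 329 to 2859.5, 1536 and 2451 (difference 2.64 ± 0.39, adjusted p = 6.9e-05), both with replicate 2 lowest of the 8-cell libraries and above all 4-cell libraries. EIF3L fell from 4121, 2166 and 2690.3 to 1097, 1076 and 769 (difference -1.57 ± 0.31, adjusted p = 0.0014). Aminoacyl-tRNA synthetases, which charge tRNAs with amino acids, had 5 falls and 1 rise among 33 (3.03% and 15.2%; 0 and 3 with both stages alone; rises numbered 3 without 8-cell replicate 1 or 2). EPRS1 (LOC538357) fell from 2294, 2541 and 2787 to 1134, 585 and 467 (difference -1.90 ± 0.31, adjusted p = 0.00017), and the mitochondrial IARS2 from 575, 493 and 609.6 to 135, 53.1 and 129 (difference -2.45 ± 0.43, adjusted p = 0.00039). WDR3 was not called with both stages alone (adjusted p = 0.082).

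Histone genes rose at a larger share than all genes tested, while histone-modifying enzymes were called at shares near theirs. Of 65 histone genes 12 rose and none fell (18.5% and 0%; 7 and 0 with both stages alone; median difference 0.31, or 0.07 with library medians set equal and 0.13 without replicate 2). Besides H2AFZ they included H2AFY, which encodes macroH2A, from 81.3, 41.1 and 46.1 to 772, 783 and 762 (difference 3.74 ± 0.45, adjusted p = 4.8e-06), and HIST1H2BN, from 317, 250.1 and 359 to 2047, 3238 and 2874 (difference 3.11 ± 0.38, adjusted p = 5.2e-06), whose many near-identical copies may share reads. Of 98 histone-modifying enzymes 10 rose and 4 fell (10.2% and 4.08%; 4 and 1 with both stages alone), and rises numbered 6 without 8-cell replicate 3 and 15 without replicate 2. SETD2, the methyltransferase of H3K36 on transcribed genes, rose from 149, 119 and 178 to 6633, 2131 and 8486 (difference 5.03 ± 0.43, adjusted p = 5.7e-08), and KDM6A, a demethylase of H3K27, from 15.7, 8.46 and 23.8 to 326, 235 and 388 (difference 4.03 ± 0.45, adjusted p = 2.1e-06). KDM1A, a demethylase of H3K4, fell from 2498, 2055 and 3306 to 856, 430.0 and 1055 (difference -1.81 ± 0.32, adjusted p = 0.00052). KDM1A was not called with both stages alone (adjusted p = 0.07).

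Of 114 chromatin remodellers and readers 15 rose and 5 fell (13.2% and 4.39%; 6 and 4 with both stages alone). CHD1, a remodeller of open chromatin, rose from 258, 104 and 326 to 3714, 1879 and 6081 (difference 4.05 ± 0.47, adjusted p = 2.9e-06), and CBX3, the heterochromatin protein HP1 gamma, from 9.03, 1.21 and 14 to 413, 353 and 562 (difference 5.40 ± 0.74, adjusted p = 2.5e-05). RBBP7, a histone-binding subunit of several complexes, fell from 15330.0, 8103 and 13317 to 4536, 3159 and 3056 (difference -1.75 ± 0.31, adjusted p = 0.0005), and the cohesin gene STAG1 from 1073, 849.5 and 1706 to 408, 202 and 232 (difference -2.10 ± 0.44, adjusted p = 0.0024). In DNA methylation and its removal 5 of 22 rose and 3 fell (22.7% and 13.6%; 4 and 1 with both stages alone), and falls numbered 5 without 8-cell replicate 2. TET1 (LOC513640), which oxidises methylcytosine, rose from 37.9, 53.2 and 60.1 to 1329.7, 984 and 4096 (difference 5.02 ± 0.69, adjusted p = 2.5e-05) and MAT2A, which makes the methyl donor, from 529, 745 and 534 to 5863, 3439 and 7199 (difference 3.13 ± 0.28, adjusted p = 9.1e-08). UHRF2 fell from 8124, 5301 and 15891 to 3463, 2919 and 3793 (difference -1.38 ± 0.32, adjusted p = 0.0047). Outside that list TRDMT1, a tRNA methyltransferase once classed as a DNA methyltransferase, fell from 122, 150.4 and 162 to 2.29, 0.818 and 9.84 (difference -4.40 ± 0.54, adjusted p = 6.6e-06). UHRF2 was not called with both stages alone (adjusted p = 0.15).

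Metabolic genes showed large changes of single members and no common direction. Of 87 nuclear-encoded subunits of the respiratory chain and ATP synthase 13 rose and 11 fell (14.9% and 12.6%; 3 and 1 with both stages alone; median difference -0.41, or -0.65 with library medians set equal), with rises numbering 8 without 4-cell replicate 3 and 7 without 8-cell replicate 3, and falls 5 without 4-cell replicate 1 and 6 without 4-cell replicate 2. NDUFB2 of complex I rose from 34.9, 70.1 and 19.6 to 308, 267 and 580.4 (difference 3.15 ± 0.45, adjusted p = 4.1e-05) and COX6A1 of cytochrome c oxidase from 131, 211 and 143 to 649.6, 371 and 1022 (difference 1.96 ± 0.36, adjusted p = 0.00069). SDHA, the flavoprotein of complex II, fell from 258, 135 and 239 to 5.34, 9.81 and 59 (difference -3.36 ± 0.56, adjusted p = 0.00027) and ATP5A1 of ATP synthase from 1205, 903 and 1050.1 to 336, 428 and 319 (difference -1.53 ± 0.29, adjusted p = 0.00094). All 4 showed no overlap between the stages. COX6A1 and SDHA were not called with both stages alone (adjusted p = 0.07 and 0.093).

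A glucose transporter was among the large rises. SLC2A3, the glucose transporter GLUT3, rose from 77.7, 81.6 and 47.5 to 5776, 5637 and 9086 (difference 6.54 ± 0.38, adjusted p = 2.1e-10), with means of 10222 ± 2784 at 16 cells and 6067 ± 1339.7 in blastocysts. Of 35 glycolysis and pyruvate genes 3 rose, SLC2A3 among them, and 1 fell (8.57% and 2.86%; 2 and 0 with both stages alone; falls numbered 0 without 4-cell replicate 1 or 2 or 8-cell replicate 1 or 2). PGK1, a kinase of glycolysis, rose from 173, 105 and 139.8 to 500.0, 669.6 and 490.4 (difference 1.97 ± 0.43, adjusted p = 0.0032). Of 307 solute carriers 23 rose and 9 fell (7.49% and 2.93%; 10 and 5 with both stages alone), close to the shares of all genes. Rises numbered 13 without 8-cell replicate 3 and 33 without replicate 2, and falls 5 without 4-cell replicate 1 or 2. The copper importer SLC31A1 rose from 388, 385 and 365 to 3098, 2997 and 6778 (difference 3.37 ± 0.32, adjusted p = 2.1e-07), and SLC41A2, a magnesium carrier, fell from 363, 579 and 509 to 111, 18.8 and 39.3 (difference -3.29 ± 0.61, adjusted p = 0.00068). SLC41A2 was not called with both stages alone (adjusted p = 0.053).

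Sterol and fatty acid genes had the lowest median of the metabolic lists, at -0.56, with 2 rises and 4 falls among 37 (5.41% and 10.8%; 0 and 2 with both stages alone). This rank rests on replicate 2, since without it the median was -0.07, against -0.29 for the respiratory chain and ATP synthase list. Rises numbered 1 without 4-cell replicate 1 or 2 or 8-cell replicate 3 and 4 without 8-cell replicate 2, and falls 2 without 4-cell replicate 1 or 2 or 8-cell replicate 1 or 3. ACSL3, which activates long fatty acids, fell from 2502, 2502 and 2532 to 397, 845 and 524 (difference -2.15 ± 0.37, adjusted p = 0.00034) and HMGCS1 of sterol synthesis from 5273, 7443 and 8936 to 2823, 3205 and 2011 (difference -1.42 ± 0.34, adjusted p = 0.0065). CYP51A1 of the same pathway rose, from 39.2, 62.8 and 30.8 to 188, 697 and 323 (difference 2.91 ± 0.65, adjusted p = 0.004), with replicate 2 highest. Antioxidant and metallothionein genes had 5 rises and 4 falls among 64 (7.81% and 6.25%; 1 and 2 with both stages alone), with rises numbering 2 without 4-cell replicate 3 and 3 without 8-cell replicate 1 or 3 and 9 without 8-cell replicate 2, and falls 1 without 4-cell replicate 1 or 8-cell replicate 3 and 2 without 4-cell replicate 2. GLRX2 rose from 0.602, 3.02 and 1.4 to 176, 96.5 and 155 (difference 4.82 ± 0.78, adjusted p = 0.00018). MT4, a metallothionein named for the size of its fall, went from 90.3, 229.6 and 19.6 to 12.2, 0 and 0 (difference -4.20 ± 0.89, adjusted p = 0.0025). HMGCS1, CYP51A1 and MT4 were not called with both stages alone (adjusted p = 0.059, 0.053 and 0.14).

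Protein turnover genes were called in both directions, at shares of the order of those of all genes. Of 48 proteasome genes 6 rose and 2 fell (12.5% and 4.17%; 1 and 1 with both stages alone; falls numbered 1 without 4-cell replicate 2), of 89 ubiquitin genes 4 and 5 (4.49% and 5.62%; 2 and 2 with both stages alone), and of 86 lysosome and autophagy genes 8 and 5 (9.3% and 5.81%; 4 and 0 with both stages alone; falls numbered 3 without 4-cell replicate 2 or 3). For the ubiquitin genes rises numbered 1 without 4-cell replicate 1 or 2 or 8-cell replicate 3 and 2 without 4-cell replicate 3 or 8-cell replicate 1, and falls 2 without 4-cell replicate 1 or 2 and 3 without 4-cell replicate 3 or 8-cell replicate 1. PSMB5, the chymotrypsin-like catalytic subunit, rose from 469.8, 386 and 636 to 1949.6, 2140.4 and 2966 (difference 2.24 ± 0.28, adjusted p = 1e-05), and PSMD3 of the regulatory lid fell from 737, 642 and 741 to 168, 164 and 179.9 (difference -2.02 ± 0.43, adjusted p = 0.0024). USP3, a deubiquitinase of histones, rose from 35.5, 88.8 and 39.2 to 1719.8, 1121 and 1792 (difference 4.80 ± 0.54, adjusted p = 2.4e-06). The autophagy receptor SQSTM1 fell from 1026, 1188 and 646 to 122, 139 and 23.9 (difference -3.53 ± 0.44, adjusted p = 6.7e-06), while GABARAP, which coats the autophagosome, rose from 118, 97.9 and 62.9 to 898, 977 and 629.6 (difference 3.12 ± 0.40, adjusted p = 1.1e-05). SQSTM1 was not called with both stages alone (adjusted p = 0.058).

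The ubiquitin ligase SIAH1 was among the rises with the highest 8-cell counts, going from 2341, 2774 and 3087 to 24032, 19249 and 12941 (difference 2.74 ± 0.34, adjusted p = 8.7e-06), and its mean was 4559 ± 1011 at 16 cells and 493 ± 85.6 in blastocysts. Chaperones too were called near the shares of all genes, with 10 rises and 4 falls among 87 (11.5% and 4.6%; 4 and 2 with both stages alone). Their rises numbered 6 without 4-cell replicate 2 or 3 and 5 without 8-cell replicate 3, and falls 2 without 4-cell replicate 1 or 3 and 1 without 8-cell replicate 2. DNAJB9 of the endoplasmic reticulum rose from 1.81, 0 and 4.19 to 466, 374 and 618 (difference 6.69 ± 0.87, adjusted p = 1.3e-05), and HSP90AB1 fell from 3443, 4273 and 3179.7 to 1319.8, 1923 and 1447 (difference -1.22 ± 0.23, adjusted p = 0.00072). In the apoptosis list 4 of 46 rose and 2 fell (8.7% and 4.35%; 1 and 1 with both stages alone), with rises numbering 2 without 4-cell replicate 3 or 8-cell replicate 3, and falls 0 without 4-cell replicate 1 or 2 or 8-cell replicate 3 and 1 without 4-cell replicate 3 or 8-cell replicate 1. MCL1, a survival member of the BCL2 family, rose from 466, 619 and 652 to 1572, 1328 and 2104 (difference 1.51 ± 0.30, adjusted p = 0.0015) and DIABLO, which releases caspases, from 19.3, 118 and 35 to 279, 330.3 and 691 (difference 3.06 ± 0.57, adjusted p = 0.00075). DIABLO was not called with both stages alone (adjusted p = 0.085).

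Genes of DNA replication had more falls than rises in the fit over all stages, though not with both stages alone, and those of the cell cycle were mixed. Of 73 replication genes 11 fell and 5 rose (6.85% and 15.1%; 2 and 2 with both stages alone), with falls numbering 6 without 4-cell replicate 1 and 7 without 4-cell replicate 3, and rises 3 without 4-cell replicate 2 or 8-cell replicate 3. LIG1, the replicative ligase, fell from 6160.5, 4709 and 6226 to 1958, 1541 and 2229 (difference -1.58 ± 0.36, adjusted p = 0.0046), PRIM1, the primase, from 187, 244 and 267 to 35.9, 0 and 78.7 (difference -3.57 ± 0.83, adjusted p = 0.0053) and POLE2 of polymerase epsilon from 1168, 1082 and 1098 to 424, 533 and 343 (difference -1.38 ± 0.32, adjusted p = 0.0059). Of the cyclins that start S phase, CCNE1 rose from 105, 201 and 173 to 1522, 1037 and 1154 (difference 2.95 ± 0.47, adjusted p = 0.00016) and CCNE2 from 9.64, 2.42 and 30.8 to 412, 921 and 544 (difference 5.37 ± 0.79, adjusted p = 6.2e-05). PRIM1 was not called with both stages alone (adjusted p = 0.24).

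In the meiosis and M-phase list 7 of 62 rose and 5 fell (11.3% and 8.06%; 3 and 1 with both stages alone), with rises numbering 4 without 4-cell replicate 3, and falls 3 without 4-cell replicate 3 or 8-cell replicate 3; with library medians set equal 2 rose. WEE1, a kinase that delays mitosis, rose from 0.602, 0 and 9.79 to 116, 149 and 372 (difference 5.27 ± 0.84, adjusted p = 0.00014), while PTTG1, the securin that guards sister chromatids, fell from 24126, 18075 and 12973 to 6717, 9648 and 4609 (difference -1.41 ± 0.30, adjusted p = 0.0029) and AURKC, an aurora kinase of germ cells, from 2197, 2086 and 1383 to 589, 678 and 448 (difference -1.71 ± 0.38, adjusted p = 0.0039). Outside that list CENPF, a kinetochore protein, fell from 41942, 31642 and 44272 to 11401, 8768 and 8136 (difference -2.06 ± 0.24, adjusted p = 2.8e-06). DLGAP5, a spindle protein also outside it, fell from 13701, 9377 and 14931 to 3995, 3758 and 4092 (difference -1.65 ± 0.29, adjusted p = 0.00045). CETN3, a centrin outside it too, fell from 1878, 898 and 1323 to 74, 34.3 and 107 (difference -4.23 ± 0.58, adjusted p = 2.4e-05). For PTTG1, AURKC, CENPF, DLGAP5 and CETN3 all 8-cell libraries lay below all 4-cell libraries. PTTG1 was not called with both stages alone (adjusted p = 0.12).

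Junction genes of epithelia were called on both sides. Of 58 junction and polarity genes 7 rose and 9 fell (12.1% and 15.5%; 5 and 2 with both stages alone), with 7 to 11 falls over the fits that left out 1 library. CTNNA1, alpha-catenin, fell from 4064, 2214 and 4364 to 1062, 1498 and 971 (difference -1.55 ± 0.29, adjusted p = 0.00067) and TJP1, the tight-junction scaffold ZO-1, from 3403, 2784 and 5685 to 1132, 1617 and 1419 (difference -1.45 ± 0.28, adjusted p = 0.001). The tight-junction gene CGN fell from 150.0, 471 and 141 to 1.53, 5.72 and 7.03 (difference -4.75 ± 0.56, adjusted p = 3.7e-06). Of desmosome genes, DSC2 had 0 reads at 4 cells and 271, 312 and 332 at 8 cells (difference 7.07 ± 0.69, adjusted p = 3.1e-07), and JUP, plakoglobin, went from a single read to 111, 1194 and 219 (difference 6.85 ± 0.82, adjusted p = 4.5e-06), with replicate 2 over 5-fold above the others. CTNNA1 and TJP1 were not called with both stages alone (adjusted p = 0.068 and 0.069).

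Of 139 matrix and integrin genes 8 rose and 2 fell (5.76% and 1.44%; 4 and 1 with both stages alone), below the shares of all genes, with rises numbering 5 without 4-cell replicate 3 or 8-cell replicate 3 and 14 without 8-cell replicate 2, and falls 1 without 4-cell replicate 1 or 3 or 8-cell replicate 2 or 3 and 0 without 4-cell replicate 2. ADAMTS1, a secreted protease, rose from a single read to 913, 448 and 1154 (difference 8.17 ± 1.00, adjusted p = 6.3e-06), and COL1A1, a collagen chain, from 0, 7.25 and 0 to 1157, 254 and 769 (difference 7.30 ± 1.18, adjusted p = 0.00017). In the cytoskeleton list 9 of 127 rose and 9 fell (7.09% and 7.09%; 3 and 5 with both stages alone). TMSB10, a thymosin that binds actin, rose from 158, 427 and 99.3 to 3869, 3483 and 3723 (difference 4.25 ± 0.36, adjusted p = 4.8e-08) and MYL12B, a myosin light chain, fell from 1371, 1247 and 779 to 214, 396 and 236 (difference -2.0 ± 0.38, adjusted p = 0.00084). Interferon and JAK-STAT genes had 2 rises and 3 falls among 52 (3.85% and 5.77%; 1 and 0 with both stages alone), and falls numbered 1 without 4-cell replicate 1 or 2 or 8-cell replicate 1 and 0 without 8-cell replicate 3. SOCS2, a brake on cytokine signals, rose from 17.5, 2.42 and 2.8 to 1883, 648 and 1128 (difference 6.87 ± 0.60, adjusted p = 8.4e-08).

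**Figure D4:**
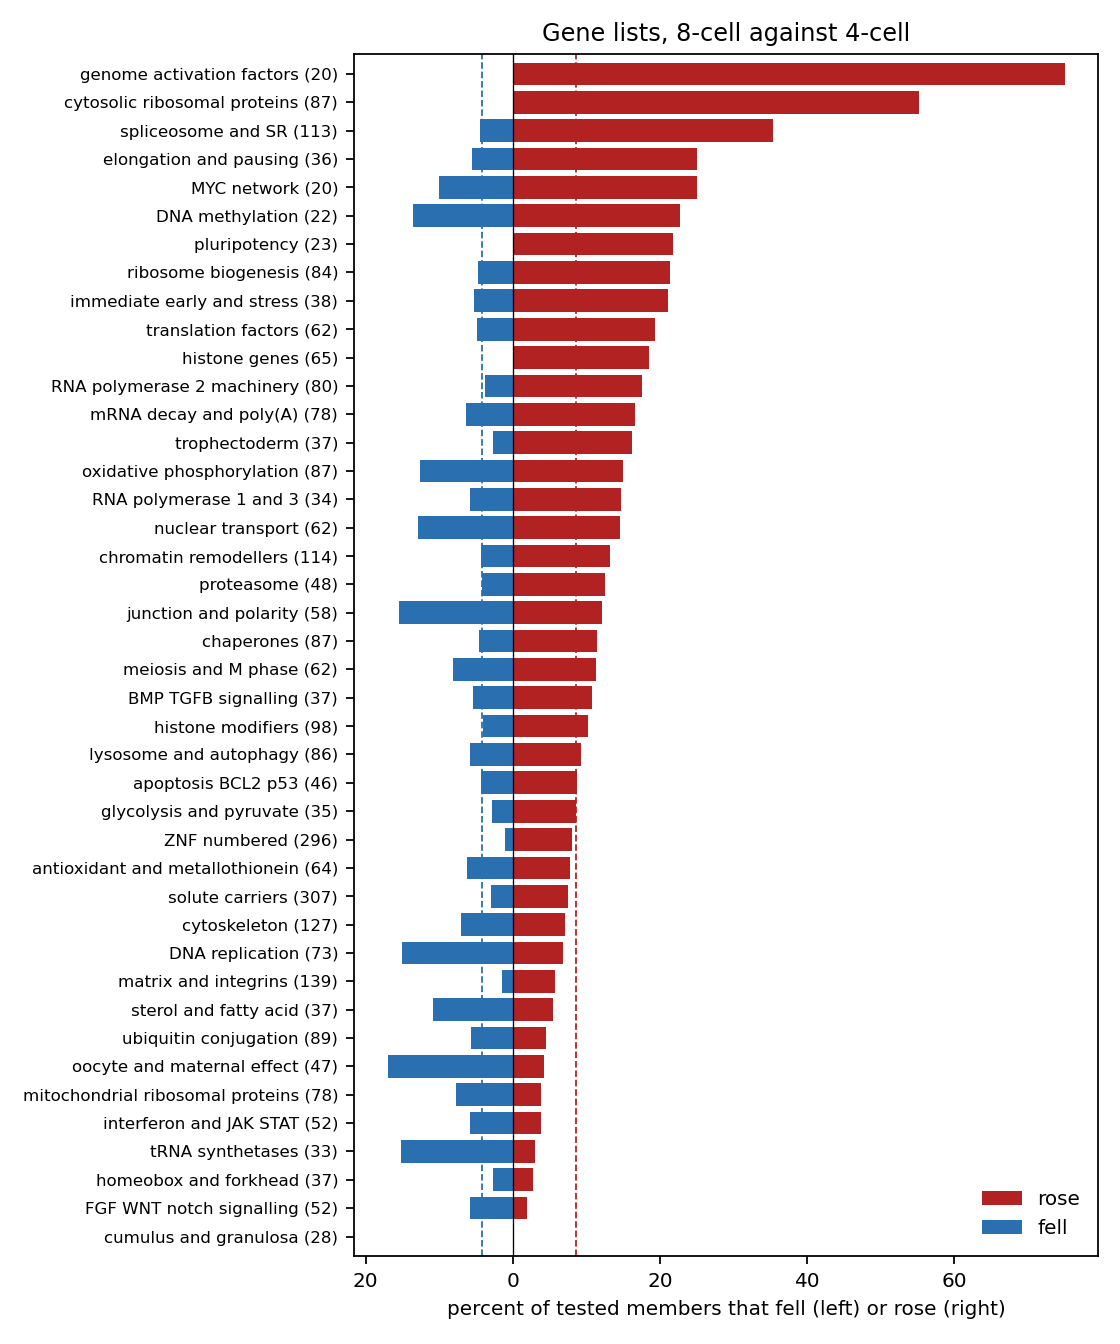
Percent of the tested members of each list with 20 or more tested genes (number in brackets) that rose (red, right) or fell (blue, left) at 8 cells. Dashed lines are the shares over all genes tested, 8.64% for rises and 4.13% for falls. Activation factors, cytosolic ribosomal proteins and spliceosome genes have the largest shares of rises, while oocyte genes, junction genes, tRNA synthetases and replication genes have the largest shares of falls.

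Oocyte and maternal-effect genes were the list with the largest share of falls, with 8 of 47 lower, 2 higher (4.26% and 17%; 1 and 5 with both stages alone) and a median difference of -0.92. The falls numbered 3 without 4-cell replicate 1 or 8-cell replicate 3 and 4 without 4-cell replicate 3, 12 without replicate 2 and 15 by voom. Junction genes kept at least 7 falls among 58 in each fit without 1 library. The rank was therefore lost without 4-cell replicate 1 or 3 or 8-cell replicate 3. Without 8-cell replicate 1 it passed to the tRNA synthetases, with 5 of 33 lower against 7 of 47 oocyte genes. The summed scaled count of the list was 251127, 257939 and 259311 in 4-cell libraries and 191533, 282694 and 145981 in 8-cell libraries. Replicate 2 thus had a larger sum than any 4-cell library on this scale, while replicates 1 and 3 had smaller sums than all of them. FIGLA, a transcription factor of the oocyte, was lowest in replicate 2, with 242, 366 and 157 at 4 cells and 45.8, 9.81 and 26.7 at 8 cells (difference -3.13 ± 0.67, adjusted p = 0.0028), and the hydrolase UCHL1 fell from 1006, 1395 and 453 to 12.2, 61.3 and 57.6 (difference -4.41 ± 0.59, adjusted p = 2e-05). BMP15 had 19095, 23684 and 24418 at 4 cells and 21905, 33674 and 19280.3 at 8 cells and was not called. The testis and oocyte bromodomain gene BRDT rose, from 49.4, 52.6 and 48.9 to 1346, 326 and 909 (difference 3.76 ± 0.62, adjusted p = 0.0002). FIGLA was not called with both stages alone (adjusted p = 0.054).

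Further falls stood out by their size or level. RNPEP, an aminopeptidase, went from 929, 1019 and 383 to 67.2, 7.36 and 49.2 (difference -4.34 ± 0.81, adjusted p = 0.0008). SUPV3L1, a helicase of mitochondrial RNA, fell from 750.5, 600.0 and 715 to 215, 11.4 and 170.0 (difference -3.03 ± 0.61, adjusted p = 0.0015). PIM3 (LOC100336651), a survival kinase, fell from 1066, 2109 and 1127 to 105, 263 and 115 (difference -3.17 ± 0.57, adjusted p = 0.00052), with a mean of 17.8 ± 18.7 at 16 cells. In the first 2 replicate 2 was the lowest library, and in PIM3 the highest of the 3. The elongation factor LEO1 had 11728, 14997 and 14906 at 4 cells and 6989.9, 8680.2 and 3811 at 8 cells (difference -1.17 ± 0.31, adjusted p = 0.014). It did not pass when a single library was taken out, namely 4-cell replicate 2 (adjusted p = 0.057), the third 4-cell library (0.054) or the third 8-cell library (0.1). RNPEP, SUPV3L1 and LEO1 were not called with both stages alone (adjusted p = 0.052, 0.2 and 0.15).

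A small set of genes was read for the first time at the 8-cell stage. With 0 reads in all 6 oocyte and all 4-cell libraries and a read in each 8-cell library, 91 genes qualified (45 with at least 5 reads in each), and 77 of them rose. The choice uses the values of both stages, so none of the 91 could fall and the count of rises is no separate result. ZNF41 was highest among the 91. MUC5B (LOC789503), a mucin, had 258, 418 and 816 at 8 cells (difference 7.62 ± 0.72, adjusted p = 2.1e-07), 416 ± 204 at 16 cells and 0.476 ± 0.824 in blastocysts. SOWAHC (LOC785063), an ankyrin repeat protein, had 135, 307 and 115 (difference 6.24 ± 0.89, adjusted p = 4e-05), and LOC508086 had 697, 358 and 717 (difference 7.95 ± 0.73, adjusted p = 1.6e-07). The choice requires reads in replicate 2, so genes silent there are not among the 91.

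Rises held a larger share of genes without a symbol than falls did, and neighbours of called genes were called more often than all genes in both directions. Of the 1480 rises 208 (14.1%) were listed by a locus number only, against 11.9% of the genes tested and 28 (3.95%) of the 708 falls. By their order in the RefSeq annotation of another assembly, ARS-UCD2.0, 14.3% of the neighbours of a rising gene rose as well, against 8.63% of genes over all 15299 pairs of tested neighbours, and 14.3% against 8.76% in pairs that do not overlap. Neighbours of a falling gene fell in 6.77% of cases, against 4.35%. The longest run was of 8 rising genes from LOC520023 to LOC100299783, with a summed scaled count of 20.5, 2.42 and 39.2 at 4 cells and 9397, 7533 and 7781 at 8 cells, and a mean of 94.7 in blastocysts. A run of 5 from LOC786377 to LOC520034 went from 20.5, 0 and 47.5 to 7088, 5994 and 6990 and had a mean of 618 at 16 cells, and a run of 7 from LOC517056 to LOC788363 had 582, 674 and 549 at 8 cells. Members of such runs may be close copies that share reads, which would make their changes depend on each other, and this was not tested. In these 3 runs replicate 2 lay near the other 8-cell libraries. Among runs of named genes were ZC3H10, PA2G4, ERBB3 and RPS26, whose sum rose from 1419, 1651 and 1465 to 5680.0, 2702 and 6366, and, among the falls, ANKLE2, PGAM5, PXMP2 and POLE, whose sum went from 1160.1, 1263 and 1243 to 291, 468 and 354.

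Replicate 2 was then placed between the stages, gene by gene. For each 8-cell library the genes were called without it, and its value was given a position on a line that is 0 at the 4-cell mean and 1 at the mean of the other 8-cell libraries. Among genes that rose, the median position was 0.98 for replicate 1 (1274 genes), 1.11 for replicate 3 (1098 genes) and 0.60 for replicate 2 (1963 genes). In replicate 2, 42.9% of these genes lay under 0.5, 448 (22.8%) at or under the 4-cell mean and 315 (16.0%) had 0 reads, though 71.1% were beyond all 4-cell libraries. Among genes that fell the medians lay close together, at 0.61, 0.66 and 0.65 (649, 722 and 576 genes). Replicate 2 thus lay nearer to the 4-cell mean than the other two in its rises, and not in its falls. Over the genes called with all libraries, which their own values helped to choose, the medians were 1.03, 0.81 and 1.21 for rises and 0.88, 1.14 and 1.00 for falls. The 3 positions are not fully alike. For replicates 1 and 3 both the choice of genes and the mean set at 1 include replicate 2. In rises a low value in replicate 2 lowers that mean and so lifts their positions. No test was made of these positions.

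**Figure D5:**
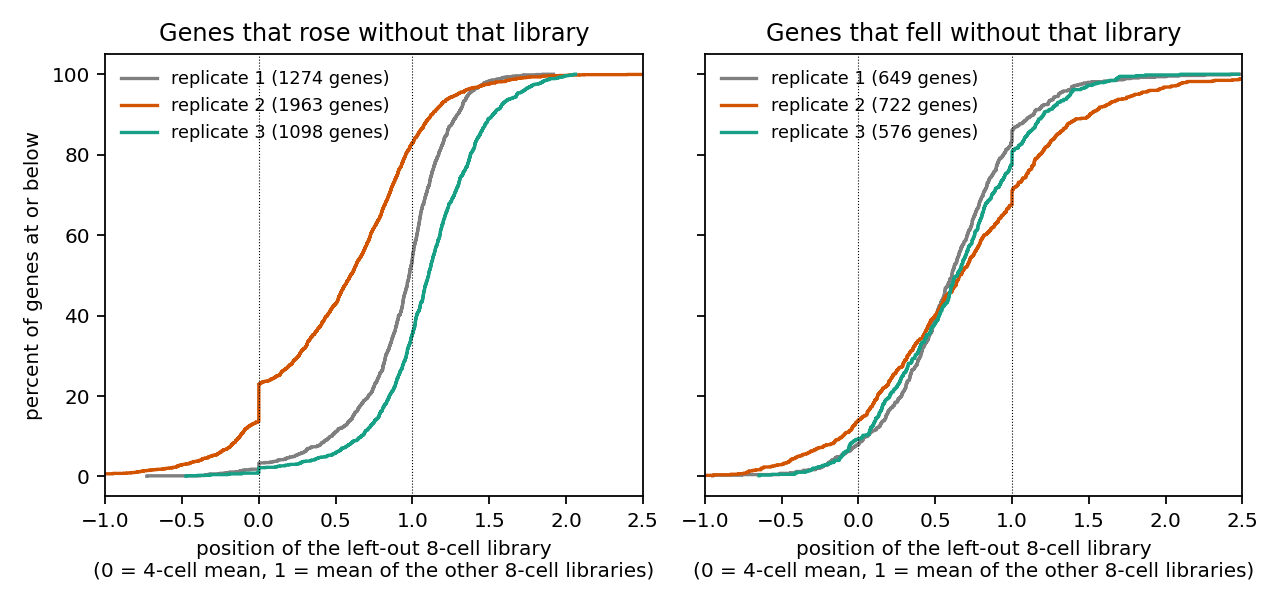
Cumulative percent of genes (y axis) by the position of the left-out 8-cell library (x axis; 0 is the 4-cell mean, 1 the mean of the other 8-cell libraries), for genes that rose (left) or fell (right) without that library. For rises the curve of replicate 2 lies to the left with a median of 0.60, against 0.98 and 1.11, and its step at 0 comes from genes with 0 reads; for falls the 3 curves run together at medians of 0.61 to 0.66.

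The gap between replicate 2 and the other two was larger for genes with few reads but was seen at high levels too. Among rises with a level of 1000 scaled counts or more in the other libraries, the median position in replicate 2 was 0.71, against 1.01 in replicate 1 and 1.08 in replicate 3. Between 30 and 100 scaled counts it was 0.45, with 31.1% of the genes at 0 reads, against 4.15% in replicate 1 and 4.29% in replicate 3. Replicates 1, 2 and 3 had 9954859, 10062355 and 5206082 reads in genes, and the part of depth in these positions was not tested. The summed count of oocyte genes, given above, was highest in replicate 2 of all 6 libraries, and its part in these positions was not tested.

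The genes placed lowest in replicate 2 had a low level by their median, with exceptions such as RIF1 and MTR below. Of the 1963 genes, 580 lay under 0.25, 632 between 0.25 and 0.75, and 751 at 0.75 or more. The first group had a median of 5.97 and 6.48 in replicates 1 and 3 on the deposited log2-like scale, 1.10 (the value of 0 reads) in replicate 2 and 6.43 at 16 cells. The middle group had medians of 8.39, 7.03 and 8.86 in the 3 replicates and 9.31 at 16 cells, and the last group 8.37, 8.31 and 8.67 and then 8.83. In blastocysts the middle group stood at 8.50 and the last group at 7.66. At 16 cells against MII oocytes, a difference of other libraries from a fit that shares its spread, 59.5%, 82.9% and 82.4% of the 3 groups were higher, against 20.8% of all genes tested.

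The lists differed in where replicate 2 lay. The activation factors had a median position of 0.93 in replicate 2 (15 genes called without it), the immediate early and stress genes 0.94 (10) and the MYC network 0.93 (6). Cytosolic ribosomal proteins lay at 0.80 (46), ZNF genes at 0.71 (32), spliceosome genes at 0.68 (45) and ribosome biogenesis genes at 0.64 (21). Lower medians were those of chromatin remodellers, at 0.57 (20), nuclear transport at 0.54 (14), elongation at 0.50 (12), matrix genes at 0.37 (14) and respiratory chain genes at 0.34 (17). In replicates 1 and 3 the same 12 lists had medians of 0.91 to 1.15 and 1.02 to 1.41. The differences between lists were not tested, and the level of a gene bears on its position, as given above.

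Single genes show how far this went. XIST, the long RNA that shuts down an X chromosome in females, had 12, 0 and 6.99 at 4 cells and 734, 34.3 and 1082 at 8 cells, so that replicates 1 and 3 stood over 20-fold above replicate 2 (difference 5.40 ± 1.23, adjusted p = 0.0045, or 0.00035 without replicate 2, 0.082 by voom and 0.13 with only the libraries of both stages). RIF1, a chromatin protein of replication timing, had 2321, 1865 and 5646 and then 14596, 4034 and 21741 (difference 1.90 ± 0.47, adjusted p = 0.0093), and replicate 2 alone lay within the 4-cell range; its adjusted p was 0.00013 without that library, 0.064 without 4-cell replicate 2 and 0.078 without 8-cell replicate 3. DLD, a subunit of pyruvate dehydrogenase, had 233, 209 and 267 and then 1719.8, 424 and 2133 (difference 2.28 ± 0.44, adjusted p = 0.0011). In all 3 the position of replicate 2 was low, at 0.34, 0.18 and 0.28. RIF1 and DLD were not called with both stages alone (adjusted p = 0.26 and 0.13).

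Some genes rose when replicate 2 was left out and were not called with it. MTR, methionine synthase, had 131, 95.5 and 148 at 4 cells and 711, 5.72 and 1003 at 8 cells (adjusted p = 0.8, or 0.00027 without replicate 2). UXT, a prefoldin-like cofactor, had 631, 684 and 522 and then 1479, 304 and 1244 (adjusted p = 0.63, or 0.049), ATAD2, a bromodomain ATPase, 142, 176 and 218 and then 585, 63.8 and 500.3 (0.64, or 0.038), and FTSJ3, a methyltransferase of ribosomal RNA processing, 237, 218 and 329 and then 502, 63 and 662 (0.96, or 0.049). In each of the 4, replicates 1 and 3 lay above and replicate 2 below all 4-cell libraries. In other rises replicate 2 was the highest library. TLK1, a kinase of chromatin assembly, had 518, 491 and 481 at 4 cells and 1276, 2816 and 1078 at 8 cells (difference 1.65 ± 0.38, adjusted p = 0.0049), and PSMD2 of the proteasome 265, 187 and 201 and then 506, 1352 and 604 (difference 1.77 ± 0.34, adjusted p = 0.0011); with library medians set equal the adjusted p of TLK1 was 0.057. Replicate 2 was over 2-fold above the other 8-cell libraries in both. TLK1 and PSMD2 were not called with both stages alone (adjusted p = 0.082 and 0.083).

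Among falls the extremes of replicate 2 went both ways. ILDR1, a tricellular junction protein, had 1266, 1572 and 804 at 4 cells and 459.5, 2517 and 297 at 8 cells (adjusted p = 0.51, or 0.031 without replicate 2), and MADD, a regulator of RAB3, 644, 501 and 706 and then 166, 1289 and 209 (0.48, or 0.025). In both, replicate 2 alone stood above all 4-cell libraries. At the other end COPS4, of the signalosome, had 873, 1484 and 754 and then 615, 115 and 287 (difference -1.84 ± 0.43, adjusted p = 0.0055), and LARS, a leucyl-tRNA synthetase, 496, 427 and 773 and then 84.7, 22.1 and 349 (difference -2.55 ± 0.58, adjusted p = 0.0046), with replicate 2 lowest of all 6 libraries. COPS4 and LARS were not called with both stages alone (adjusted p = 0.2 and 0.23).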

How the data were processed

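RNA-seq libraries of 18 pools of 10 oocytes or embryos were sequenced as single, unstranded reads after amplification of cDNA primed with random and poly(A) primers, per the labels' protocols. The authors deposited 1 table of variance-stabilised log2 values for 21668 genes. The submitters' processing notes name CASAVA 1.6, TopHat2 2.0.3, HTSeq, DESeq and the genome build UMD3.1; what each did, and with which settings and annotation, is not given in the sources used here. The transform could be undone: all 390024 values came out as whole reads within 1e-08, and a scaled count is such reads divided by the size factor of the library. Amplified reads are not independent molecules, and genes with near-identical copies may share reads.

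The 17138 genes with 1 read or more in 3 or more of the 18 libraries were tested on the deposited values with limma 3.58.1 in R 4.3.3, in a fit over all 6 stages with a trend, so that all stages share the estimate of spread. The contrast was 8-cell minus 4-cell, called at a Benjamini-Hochberg adjusted p under 0.05. Tables and plots were made with Python 3.11.15, pandas 2.3.3, numpy 2.4.6 and matplotlib 3.10.9. The same kind of fit was also run on simulated counts, and the outcome is not given here. Samples were grouped by their titles, and 0 columns were left without a sample.

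The comparison, the 45 gene lists and the named genes were chosen with earlier results of these data known. Named genes come from the largest differences without overlap, the smallest p of each list, the highest levels, the first detected genes, the extremes of replicate 2 and a set of fixed factors. After their values were seen, genes whose call was lost without 1 library were mostly left out of the text, and ARGFX, BMP15 and the other markers named come from a list of cell type markers. A list is described by counts beside those of all genes, with no set test. Alternatives were the libraries in the fit, a replicate block, log2 of scaled counts plus 1, voom on recovered reads, no filter or a stricter one (10 reads), other scalings, array weights, no trend and each library left out. Gene names of LOC entries and the order of genes come from a RefSeq table of ARS-UCD2.0; no coordinates were used. Promoter sequences were not analysed here.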

Additional observations from a re-analysis of the deposited data

How the results depend on the processing

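Rises numbered 736 and falls 281 when the spread was taken from the libraries of both stages alone, against 1480 and 708, and array weights gave 1213 falls. Leaving out 1 library gave 364 to 722 falls. Members of any list that rose numbered 399, or 199 with both stages alone. Those that fell numbered 156, or 57 with both stages alone, 244 with array weights and 92 to 156 without 1 library. Of 1440 counts of single lists under the alternatives, 1135 stayed within 1.5 times and 305 did not. Positions of falls called with all libraries were 0.88, 1.14 and 1.00 for replicates 1, 2 and 3. For falls called without replicate 3 its position was 0.65, or 0.61 on log2 of scaled counts plus 1. Genes first detected numbered 45 in place of 91 at 5 reads. The sign of genes that were not called turned for FTSJ3 (-0.12 with library medians set equal, -0.0008 without 4-cell replicate 2, -0.30 without 8-cell replicate 1 and -0.50 without replicate 3, in a range up to 1.15), MTR (-0.36 without 8-cell replicate 1 and -0.61 without replicate 3, in a range up to 2.73) and SOX2 (0.16 without 4-cell replicate 3 and 0.77 without 8-cell replicate 2, in a range down to -1.08). The cause was not tested for these, beyond the fewer libraries in a fit.

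With the replicate number as a block, 1555 genes rose and 813 fell. The correlations of deviations of same-numbered libraries were low, at 0.017, 0.062 and 0.054, though each 8-cell library correlated best with the 4-cell library of its own number. The labels do not say whether same-numbered pools share a collection, and this was not tested. The block is therefore given as an alternative only. Of all called genes that the naming rule chose, 127 of 136 rises and 65 of 97 falls kept their call in each fit without 1 library, and 32 rises and 52 falls lost it with both stages alone. Among those the text describes, 12 of 90 rises and 26 of 52 falls lost it with both stages alone.

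With 3 pools a stage and 5206082 to 11971840 reads a library, the absence of a call is no evidence that a gene stayed level.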
